A study of Mus musculus with 11 samples.

Results

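The genes of the circadian clock were followed array by array in left ventricles of adult and newborn mice that were transgenic for HMGN5 or served as controls. The members, a list of named genes drawn up with earlier results of these data known, were Arntl, Clock, Npas2, Per1, Per2, Per3, Nr1d1, Nr1d2, Dbp and Tef, and all 10 were among the 18194 genes that had a probe set with 1 gene symbol. Each gene was read from its brightest probe set, in log2 units. Transgenic mice, of C57BL/6 background, carried a full-length mouse Hmgn5 cDNA with a FLAG tag behind a floxed LacZ cassette under the CAG promoter. The cassette was cut out by cre expressed from alphaMHC, a promoter of heart muscle cells, so vessels and stroma of the ventricle are outside this model. Controls of the same background were labelled wild-type, and whether they carried cre is not given in the sources used here. The 11 arrays comprised 3 transgenic and 3 control adult hearts and 3 transgenic and 2 control newborn hearts, which the labels call biological replicates. The labels give neither the age in days or weeks nor the hour at which a heart was collected.

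The clock is a feedback loop that runs in almost every cell, heart muscle included. ARNTL (also called BMAL1) pairs with CLOCK or its relative NPAS2 and binds E-boxes to switch on the Per and Cry genes, whose proteins return to block the pair. The same pair switches on Nr1d1 and Nr1d2, which encode the REV-ERB nuclear receptors that repress Arntl and Npas2, and on Dbp and Tef, which encode transcription factors that bind D-boxes in output genes. In mouse tissues Arntl and Npas2 therefore peak when Dbp and Nr1d1 are near their lowest, and a heart's levels of these genes depend on the hour at which it is taken.

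The binding sites that connect the members were sought in RefSeq promoter windows of build GRCm38.p6, each running from 250 bases before to 50 bases after a transcription start. The windows, 14 in all, covered 9 of the 10 members. The letters CACGTG (E-box), CACGTT (E-box variant), TTATGTAA and TTACGTAA (D-boxes) and AGGTCA (the hexamer that ROR and REV-ERB receptors bind) were searched on both strands, and no pair of these motifs contains the other. The 30-base windows below are shown because they hold the letters through which the members are known to act on one another, with the matched letters in capitals.
Per1, E-box, chr11:69098771-69098800, plus strand: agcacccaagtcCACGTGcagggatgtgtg
Tef, E-box, chr15:81802534-81802563, plus strand: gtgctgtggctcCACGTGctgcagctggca
Tef, E-box at another start, chr15:81811264-81811293, plus strand: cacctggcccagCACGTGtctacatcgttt
Nr1d1, E-box variant read on the opposite strand, chr11:98775388-98775417, minus strand: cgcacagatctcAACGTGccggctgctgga
Per3, D-box, chr4:151044852-151044881, minus strand: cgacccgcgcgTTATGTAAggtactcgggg
Per3, D-box, chr4:151044805-151044834, minus strand: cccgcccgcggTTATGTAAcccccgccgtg
Arntl, receptor hexamer, chr7:113207530-113207559, plus strand: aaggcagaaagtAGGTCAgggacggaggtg

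The E-boxes lay 166 bases before the Per1 start and 127 and 138 bases before the Tef starts. The D-boxes lay 205 and 158 bases before the Per3 start, and the Arntl hexamer began at base 32 after its start. Of all 32851 promoter windows, 7.15% held CACGTG, 4.68% CACGTT, 0.938% TTATGTAA, 0.119% TTACGTAA and 16.3% AGGTCA. Clock, Per1 and Nr1d2 windows also held AGGTCA, and no member's window held TTACGTAA. These matches describe letters only, and no binding was measured here.

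Some features of the arrays bear on everything that follows. The 6 ventricular muscle markers had mean log2 levels of 12.52 to 12.99 on the 11 arrays, at a median percentile of 99.9 among all genes. Adult replicate 3 of both groups read 12.18 (transgenic) and 11.89 (control) for the 18S ribosomal RNA control probe sets, against 7.64 to 8.58 on the other 4 adult arrays and 10.05 to 10.53 on newborn arrays. The nuclear RNA Malat1 moved with 18S, at 13.04 and 12.75 against 8.15 to 9.33. The mean of the 5 atrial markers ranged from 6.58 to 9.91 on adult arrays, and control adult replicate 3 also had the highest mean of the 3 brown fat markers (9.89, against 8.72 to 8.93 on the other 5 adult arrays) and of the 2 white fat markers measured (5.73, against 3.46 to 4.18). Marker means of other cell types also separated the adult groups: fibroblast (5 genes) at 10.09 to 10.25 in transgenic and 9.02 to 9.96 in control adults, skeletal muscle (3 genes) at 6.73 to 6.81 and 5.69 to 6.08, and endothelium (4 genes) at 7.95 to 8.17 and 8.27 to 8.34. For skeletal muscle the median change of the 3 genes was only 0.02, with 1 gene called, so its mean does not stand for the whole list. Between ages, macrophage markers (6 genes) read 8.58 to 9.60 in adults and 6.90 to 7.37 in newborns, and epicardial markers (3 genes) 4.58 to 4.98 and 7.10 to 7.90. Their part in the transgenic and age differences given here was not tested. In whole tissue, fewer cells of a type and less RNA per cell cannot be told apart. Results are therefore given with and without adult replicate 3. The Hmgn5 probe set read no higher in hearts labelled transgenic, with a log2 difference of -0.16 (SE 0.14, limma adjusted p = 0.647) in adults, and it cannot check the labels, as its position relative to the transgene's cDNA is not given.

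The clock genes differed more between adult hearts of one group than between the groups. In replicates 1 and 2 of both adult groups Dbp was high and Arntl and Npas2 were low, while in replicate 3 of both groups Dbp was low and Arntl and Npas2 were high. Newborn hearts lay between these extremes for Dbp and Arntl and kept close together.

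Among the activators, Arntl, the obligate partner of the pair, read 6.24, 6.20 and 7.67 (log2) in transgenic adult replicates 1, 2 and 3 and 5.39, 5.96 and 8.31 in control adult replicates. In newborns it read 6.89, 7.17 and 6.89 (transgenic) and 7.06 and 6.89 (control). Replicate 3 was thus the highest array of each adult group, by 1.45 and 2.63 over the mean of replicates 1 and 2, or 2.74-fold and 6.21-fold, and the adult groups overlapped. Npas2, the relative of Clock, read 4.40, 4.40 and 5.28 in transgenic adults and 4.02, 4.08 and 5.99 in control adults. In newborns it read 6.48, 6.57 and 6.66 (transgenic) and 6.82 and 6.46 (control), so every newborn array lay above every adult array. Clock itself, whose transcript is known to cycle little in many tissues, stayed between 7.95 and 8.51 on all 11 arrays, and control adult replicate 3 was the highest. A dimmer Arntl probe set was also highest in replicate 3 of each adult group, by smaller steps (4.66, 4.27 and 4.74 in transgenic and 4.39, 4.48 and 4.69 in control adults).

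**Figure D1:**
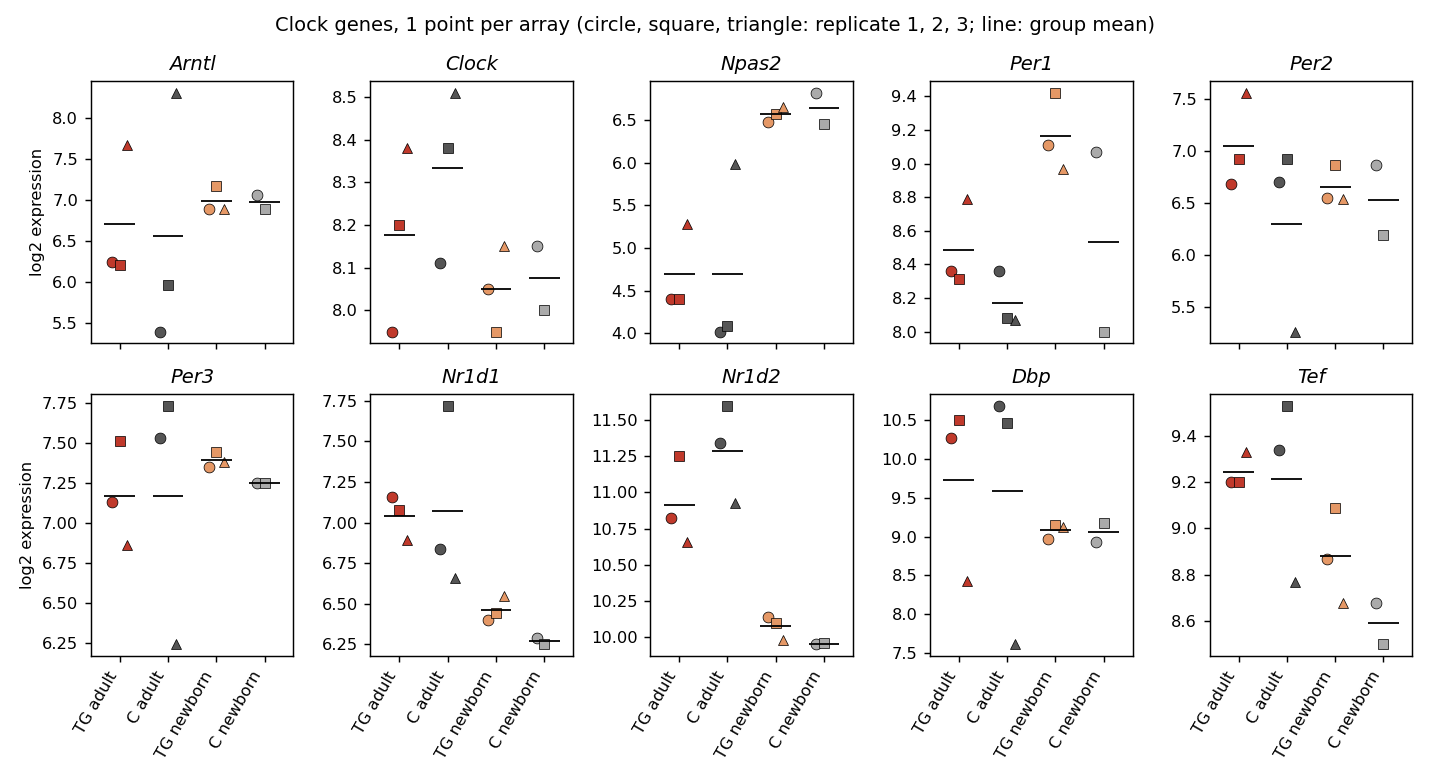
Log2 expression of the 10 clock genes, 1 panel per gene with its own vertical axis and 1 point per array (circle, square and triangle for replicates 1, 2 and 3), grouped as transgenic (TG) and control (C) adults and newborns, with a line at each group mean. The triangles of both adult groups lie far from the circles and squares for Arntl, Npas2 and Dbp, and newborn Npas2 (6.46 to 6.82) lies above all adult values (4.02 to 5.99).

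The output factor Dbp showed the widest change. It read 10.27, 10.51 and 8.43 in transgenic adult replicates 1, 2 and 3 and 10.69, 10.47 and 7.61 in control adult replicates. Newborn arrays read 8.97, 9.15 and 9.12 (transgenic) and 8.93 and 9.18 (control). Replicate 3 lay below the mean of replicates 1 and 2 by 3.89-fold in transgenic and by 7.81-fold in control adults, the latter the rank 2 fall among all 18194 genes for that array, and the transgenic fall was rank 51. The other Dbp probe set gave the same order within each adult group for replicate 3, at 7.57 against 9.93 and 9.59, and at 6.58 against 9.67 and 10.20. Tef, a close relative of Dbp, moved little in transgenic adults (9.20, 9.20 and 9.33) and read 9.34, 9.53 and 8.77 in control adults. Its newborn values were 8.87, 9.09 and 8.68 (transgenic) and 8.68 and 8.50 (control), all below the transgenic adult arrays. In transgenic adults all 3 Tef probe sets were highest in replicate 3. In control adults the dimmest went against the brightest, with replicate 3 highest (5.07, 5.02 and 6.13).

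The Period genes, whose proteins block the activators, separated the adult hearts of replicate 3 from each other. Per2 read 6.68, 6.92 and 7.56 in transgenic adults, where replicate 3 was the highest, and 6.70, 6.92 and 5.26 in control adults, where replicate 3 was the lowest of all arrays. Replicate 3 of the transgenic group thus exceeded that of the control group by 2.30, while replicates 1 and 2 differed from their control counterparts by -0.02 and 0. Per1 read 8.36, 8.31 and 8.79 against 8.36, 8.08 and 8.07, and Per3 read 7.13, 7.51 and 6.86 against 7.53, 7.73 and 6.24. Per3 was lowest in replicate 3 of each group, whereas Per1 was highest there in transgenic hearts alone. The other Per2 probe sets kept the order of both replicate 3 arrays, at 6.95 and 5.93 (transgenic) against 6.25 and 4.72 (control). The Per3 probe sets disagreed in transgenic replicate 3, where others were highest in the group (5.93, 6.28 and 6.60, and 5.17, 5.40 and 6.28). In control adults those were lowest in replicate 3 (6.11, 6.33 and 5.78, and 5.94, 6.05 and 5.04). A dimmer one was highest in control replicate 3 (4.81, 4.98 and 5.05).

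In newborn hearts Per1 and Per2 were the members that varied. Per1 read 9.11, 9.42 and 8.97 in transgenic and 9.07 and 8.00 in control newborns, and Per2 read 6.55, 6.87 and 6.54 against 6.87 and 6.19. Control newborn replicate 2 was the lowest newborn array for both genes. Per3 stayed within 7.35 to 7.44 in transgenic newborns and read 7.25 on both control arrays. Per1 is also a known target of the glucocorticoid receptor, and the mean of 14 glucocorticoid-responsive genes was 9.19, 9.62 and 8.97 in transgenic and 9.36 and 8.77 in control newborns. The same arrays were thus highest (transgenic replicate 2) and lowest (control replicate 2) for Per1 and for this list. The receptor's co-chaperone gene Fkbp5 read 9.56 and 7.58 on those arrays, and Klf15 read 8.74 and 7.13. Of this list only Pdk4 (9.88 and 10.47) and Dusp1 (9.66 and 9.93) went the other way. Whether these genes and Per1 share a cause was not tested.

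The REV-ERB genes set adults apart from newborns. Nr1d2 read 10.82, 11.25 and 10.66 in transgenic and 11.34, 11.60 and 10.93 in control adults, and 10.14, 10.10 and 9.98 in transgenic and 9.95 and 9.96 in control newborns. Every adult array lay above every newborn array. Nr1d1 read 7.16, 7.08 and 6.89 in transgenic and 6.84, 7.72 and 6.66 in control adults, and 6.40, 6.44 and 6.55 in transgenic and 6.29 and 6.25 in control newborns. In each adult group replicate 3 was the lowest array for both genes by their brightest probe sets. The step was smaller than for Dbp, at most 1.54-fold below the mean of replicates 1 and 2. The dimmer Nr1d2 probe set did not keep this order. Its replicate 3 was highest in transgenic adults (4.02, 4.38 and 4.68) and lay between the others in control adults (4.16, 4.67 and 4.37).

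To place each heart on 1 scale, a clock balance was taken as the mean log2 value of the 7 repressor and output genes minus that of the 3 activators. Its zero has no meaning, since probe sets differ in brightness, and it describes the arrays and was not tested. Control adult replicates 1 and 2 had balances of 2.85 and 2.73, and transgenic adult replicates 1 and 2 had 2.32 and 2.41. Replicate 3 had 1.25 in the transgenic and 0.05 in the control group, the lowest of all arrays. Newborn balances spanned 0.94 to 1.13 (transgenic) and 0.79 to 0.80 (control). Control adult replicate 3 remained the lowest array when any of the 10 genes was left out of the balance.

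**Figure D2:**
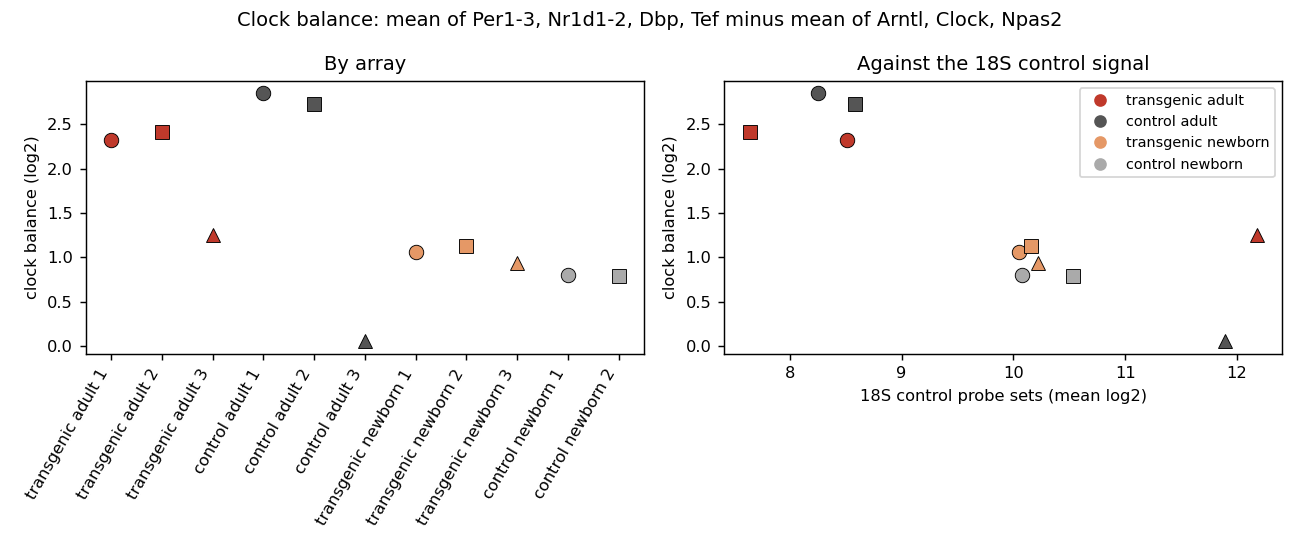
Clock balance (log2, mean of 7 repressor and output genes minus mean of 3 activators) by array on the left and against the mean log2 signal of the 18S control probe sets on the right, 1 point per array, coloured by group and shaped by replicate as above. The 4 adult arrays with 18S signals of 7.64 to 8.58 have balances of 2.32 to 2.85, and adult replicate 3, at 11.89 and 12.18, has 0.05 and 1.25.

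The 18S signal moved against the balance in adults. The high-18S arrays are the same 2 arrays as those with the low balance, so array processing and the state of the clock cannot be told apart in adult replicate 3. Between those 2 arrays the 18S signal differed by little (12.18 and 11.89) while the balance differed (1.25 and 0.05). Brown fat markers were higher on control adult replicate 3 (mean 9.89) than on transgenic adult replicate 3 (8.92), and their part in the clock values was not tested.

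Within groups, the spread of the clock genes was wide in adults and ordinary in newborns. On the 6 adult arrays the within-group SD was 1.46 for Dbp, 1.24 for Arntl, 0.869 for Npas2, 0.714 for Per2 and 0.614 for Per3, against 0.211 for the median gene. Only 0.0769% of all genes had a wider adult spread than Dbp and 0.176% a wider one than Arntl, and 5 of the 10 members were among the widest 5% of genes. Without replicate 3 the SD fell to 0.163 for Dbp and 0.0278 for Npas2, and none of those 5 members was in the widest 5% of genes. Nr1d1, which had 12.4% of genes above it on all adult arrays, was then the 1 member in the widest 5% (SD 0.445). Among newborns the members in the widest 5% were Per1 (0.474) and Per2 (0.318), and the median member had 0.139 against 0.106 for all genes. Clock was the member with the least spread over all groups, at 0.173.

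**Figure D3:**
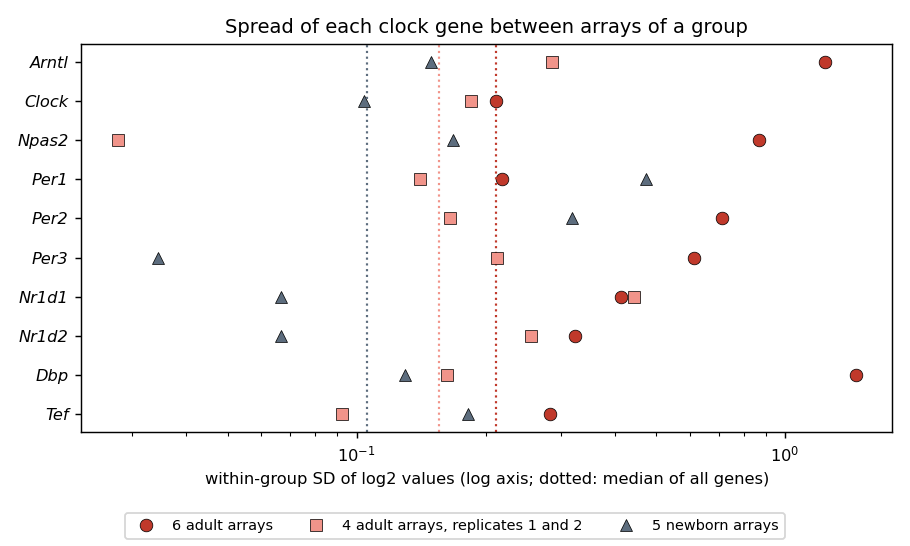
Within-group SD of log2 values (log axis) of each clock gene on the 6 adult arrays, on adult replicates 1 and 2 alone and on the 5 newborn arrays, with dotted lines at the median of all genes in the same arrays. Dbp (1.46), Arntl (1.24) and Npas2 (0.869) lie furthest right on all adult arrays and return to 0.163, 0.286 and 0.0278 without replicate 3.

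Over all 11 arrays, members of opposite arms mostly moved against each other within groups. After subtraction of each group's mean, Dbp correlated with Arntl at r = -0.982 and with Npas2 at r = -0.975 over the 11 arrays. The median r was -0.53 over the 21 pairs of an activator with a repressor or output gene and 0.59 over the 24 pairs within an arm. These values describe arrays that share labelling and the 18S difference, and they rest on adult replicate 3. Without those 2 arrays Dbp and Arntl correlated at -0.445 over 9 arrays. The median was then 0.40 over opposite pairs and 0.32 over pairs within an arm, so opposite pairs no longer lay below the others.

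Genes outside the list with the pattern most like the balance were taken as those with the highest and lowest r over the 11 deviations from group means, among 8898 named genes above the median level. The highest were Psmg4 (0.987), Palm (0.982), Tspan4 (0.982), Ypel5 (0.981), Igbp1 (0.980), Pnpla6 (0.979), Ddx47 (0.979) and Rfesd (0.978). The lowest were Ehmt1 (-0.978), Heatr6 (-0.977), Mpped2 (-0.976), Slc4a4 (-0.973), Lmtk2 (-0.972), Gramd4 (-0.970), Syne1 (-0.970) and Sobp (-0.968). Without adult replicate 3 r was 0.851 for Pnpla6 and 0.680 for Tspan4 but -0.357 for Ddx47 and 0.501 for Syne1. For the first gene at each end, Psmg4 and Ehmt1, it was 0.169 and 0.0958, so the likeness of several of these genes rests on adult replicate 3. Tspan4, a tetraspanin gene, read 9.39 and 7.97 in replicate 3 of transgenic and control adults against 9.88, 9.75, 9.29 and 9.15 in the other adult arrays.

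The comparison of transgenic with control hearts asks whether HMGN5, a nucleosome-binding protein that loosens chromatin, changes the clock genes. In adults 0 of the 10 members passed the limma test (Benjamini-Hochberg adjusted p under 0.05 over all genes), where 7.09% of all genes were called (4.16% higher and 2.93% lower). At an unadjusted p under 0.05 there were also 0 members, against 20.2% of all genes. The median change was -0.0013 for the 3 activators and 0.03 for the 7 repressor and output genes, against 0.00 for all genes. The largest differences were in Per2 at 0.76 (SE 0.39, 95% interval -0.10 to 1.62, adjusted p = 0.317) and Nr1d2 at -0.38 (SE 0.18, interval -0.79 to 0.02, adjusted p = 0.280). For Dbp the difference was 0.15 with an interval of -1.46 to 1.75, and for Arntl 0.15 with -1.23 to 1.53. Such intervals leave room for changes of 2-fold and more in either direction, so the test does not show that these genes were equal. All 10 members overlapped between the adult groups, where 17.9% of all genes did not.

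Replicate 3 set several of these values. With replicates 1 and 2 alone, Per2 differed by -0.01 (adjusted p = 0.991) in place of 0.76, Arntl by 0.55 (SE 0.18, interval 0.14 to 0.95, adjusted p = 0.0818), Npas2 by 0.35 (interval 0.05 to 0.66, adjusted p = 0.136) and Nr1d2 by -0.44 (interval -0.78 to -0.09, adjusted p = 0.103). Again 0 members passed, where 12% of all genes were called. In replicate 3, which has 1 array a group and no test, transgenic minus control was -0.63 for Arntl, -0.71 for Npas2 and 0.82 for Dbp, opposite in sign to the difference in replicates 1 and 2 (0.55, 0.35 and -0.19).

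In newborns 0 of the 10 members passed, and 0 of all 18194 genes did (0%), with 198 genes (1.09%) at an unadjusted p under 0.05 in limma. Per1 was among these, at 0.63 (SE 0.28, interval 0.03 to 1.24, unadjusted p = 0.0423 and adjusted p = 0.999985). It rested on control replicate 2, without which the difference was 0.10. The groups did not overlap for Per3, Nr1d1 and Nr1d2, all higher in transgenic newborns, by 0.14 (SE 0.35), 0.20 (SE 0.25) and 0.11 (SE 0.21). That is 3 of 10 members where 20.9% of all genes did not overlap, near the background. The adult and newborn differences were not shown to be unlike: 0 members passed the test of that difference, where 0.687% of genes were called, and its smallest adjusted p among members was 0.639, for Nr1d2.

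**Figure D4:**
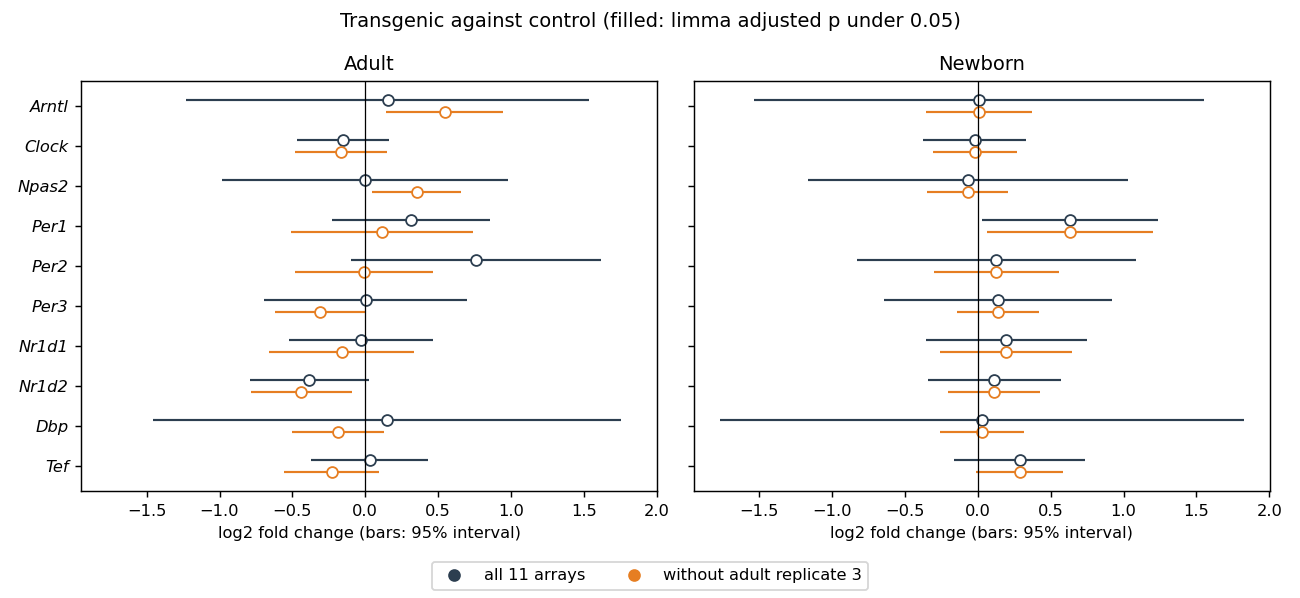
Log2 fold change of transgenic against control hearts in adults (left) and newborns (right) for each clock gene, with limma's 95% interval, fitted to all 11 arrays (dark) and without adult replicate 3 of both groups (orange). All points are open, since 0 members passed at either age in either fit, and the adult intervals of Dbp and Arntl shrink without replicate 3.

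The comparison of adult with newborn hearts gives the postnatal change of the clock genes within a genotype. Adult and newborn arrays also differed in 18S signal, so a difference in age and one in how the arrays were processed cannot be told apart. In control hearts 4 of 10 members passed, 3 higher and 1 lower in adults, where 33% of all genes were called (14.9% higher and 18.1% lower). In transgenic hearts 3 of 10 passed, 1 higher and 2 lower, where 39.4% were (19.7% in each direction). Both counts are near their background. The median change of the 7 repressor and output genes was 0.54 in control and 0.40 in transgenic hearts, against 0.09 for all genes in each. Adult and newborn arrays did not overlap for Npas2, Nr1d1, Nr1d2 and Tef in controls, 4 of 10 members where 63.6% of all genes did not. In transgenic hearts Per1 joined these, which made 5 of 10 where 54.6% did not. The 2 comparisons share no array, but they share the age difference in processing.

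Npas2 fell in both genotypes. It went from 6.64 ± 0.26 (SD, n = 2) in newborn to 4.69 ± 1.12 (n = 3) in adult controls, a log2 fold change of -1.94 (SE 0.50, limma adjusted p = 0.0128). In transgenic hearts it went from 6.57 ± 0.09 to 4.69 ± 0.51 (n = 3 each), by -1.88 (SE 0.45, adjusted p = 0.00747). The call in controls was lost without control newborn replicate 1 (adjusted p = 0.108). The dimmer Npas2 probe set, which read 3.91 to 4.67 on the 11 arrays, differed by 0.09 in controls, so the fall rests on 1 of the 2 probe sets.

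Nr1d2 rose in both genotypes, from 9.96 ± 0.01 (n = 2) to 11.29 ± 0.34 (n = 3) in controls, by 1.34 (SE 0.21, adjusted p = 6.68e-04), and from 10.07 ± 0.08 to 10.91 ± 0.31 in transgenic hearts, by 0.84 (SE 0.18, adjusted p = 0.00499). It kept its call without any of the 11 arrays. Nr1d1 rose in controls by 0.80 (SE 0.25, adjusted p = 0.0316), a call lost without control newborn replicate 1 or 2 (adjusted p = 0.138 and 0.127). In transgenic hearts Nr1d1 differed by 0.58 (SE 0.22, adjusted p = 0.0619). Tef rose in controls by 0.62 (SE 0.20, adjusted p = 0.0379), which was lost when 1 of 5 arrays was left out: control adult replicate 1 or 2, transgenic newborn replicate 1, or control newborn replicate 1 or 2 (adjusted p from 0.0549 to 0.183).

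Per1 fell in transgenic hearts, from 9.17 ± 0.23 to 8.48 ± 0.26 (n = 3 each), by 0.69 on the log2 scale (SE 0.25, adjusted p = 0.0466). The call stood close to the threshold and was lost when any 1 of 8 of the 11 arrays was left out, with adjusted p up to 0.155, and with cyclic loess (0.154) or a common array median (0.0921). In control hearts Per1 differed by -0.37 (SE 0.28, adjusted p = 0.312), and by -0.90 (adjusted p = 0.0274) without control newborn replicate 2. With cyclic loess or a common median the transgenic split became 3 higher and 1 lower, with Nr1d1 and Tef now passing.

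Dbp and Arntl, whose adult arrays spread most, did not pass in the full comparison. Dbp differed by 0.54 (SE 0.81, adjusted p = 0.624) in controls and 0.65 (SE 0.73, adjusted p = 0.486) in transgenic hearts, and Arntl by -0.42 (SE 0.70) and -0.28 (SE 0.63). The dimmer Arntl probe set, at 3.81 to 4.74 on the 11 arrays, went the other way. It was higher in adults by 0.39 in controls and 0.58 in transgenic hearts (limma adjusted p over all probe sets = 0.121 and 0.0174). Without adult replicate 3 Dbp was higher in adults by 1.52 (SE 0.14, adjusted p = 1.82e-05) in controls and by 1.31 (SE 0.13, adjusted p = 2.43e-05) in transgenic hearts. Arntl, by its brightest probe set alone, was then lower by 1.30 (SE 0.18, adjusted p = 2.58e-04) and 0.76 (SE 0.17, adjusted p = 0.00360). With those arrays left out 7 members passed in controls and 6 in transgenic hearts, where 45.4% and 50.9% of all genes did. Per3 in controls, by its brightest probe set, turned from -0.08 to 0.38 (adjusted p = 0.0485). Its probe sets disagreed with age on all 11 arrays. One was lower in adults by 0.57 in controls and 0.97 in transgenic hearts (limma adjusted p over all probe sets = 0.243 and 0.0374). Dimmer ones were higher by 0.41 in controls (adjusted p = 0.105 and 0.121). Since replicate 3 held the adult hearts with low Dbp and high Arntl, the fit without it compares newborn hearts with adult hearts that all had a high balance.

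**Figure D5:**
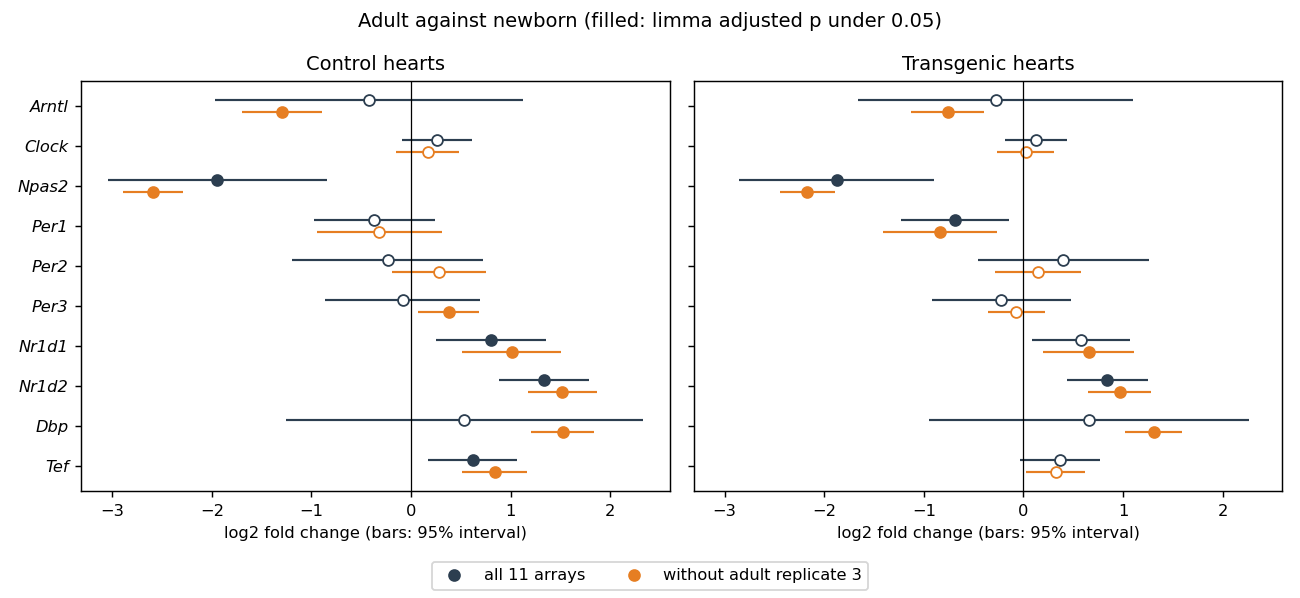
Log2 fold change of adult against newborn hearts in controls (left) and transgenic hearts (right) for each clock gene, with limma's 95% interval, fitted to all 11 arrays (dark) and without adult replicate 3 (orange), filled where the adjusted p is under 0.05. Npas2 and Nr1d2 are filled in both fits and both genotypes, and Dbp and Arntl become filled when replicate 3 is left out.

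Of a further list of 26 clock genes, 24 were measured. In adult transgenic hearts 2 rose, 2 fell and 20 did not pass, with a median change of 0.07 against 0.00 for all genes. Of all genes 4.16% were called higher and 2.93% lower in this comparison. Nampt, which encodes the rate-limiting enzyme of NAD salvage and is a known clock output, fell from 10.36 ± 0.25 to 9.29 ± 0.18 (n = 3 each), by 1.07 on the log2 scale (SE 0.18, adjusted p = 0.00466), and kept its call without any single array. Hlf, which encodes the third member of the Dbp and Tef family, read 6.54, 6.78 and 5.74 in transgenic and 7.54, 7.44 and 6.92 in control adults, and fell by 0.95 (SE 0.25, adjusted p = 0.0445). Its groups did not overlap, but the call was lost when any 1 of 8 arrays was left out (adjusted p up to 0.145). Bhlhe40, which encodes a repressor that binds E-boxes, rose by 0.87 (SE 0.19, adjusted p = 0.0189), from 8.56 ± 0.45 to 9.43 ± 0.06, a call lost without transgenic adult replicate 1 or 2 (adjusted p = 0.0594 and 0.0540). Fbxl21, which encodes a ubiquitin ligase adaptor acting on cryptochromes, rose by 0.67 (SE 0.16, adjusted p = 0.0254) at 3.75 to 5.06 on the 11 arrays, below the array medians, and lost the call when any 1 of 4 adult arrays was left out (adjusted p up to 0.0873).

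With the 6 adult arrays fitted alone Nampt kept its call, while Bhlhe40, Fbxl21 and Hlf lost theirs (adjusted p = 0.114, 0.142 and 0.189). All 4 genes were called without replicate 3, with Hlf at -0.83 (adjusted p = 0.00462). Transgenic minus control in same-numbered arrays was -1.07, -1.17 and -0.96 for Nampt and 0.84, 0.50 and 1.28 for Bhlhe40, of the same sign in replicate 3 as in the others. Nampt also rose with age, by 2.99 (SE 0.20) in control and 1.87 (SE 0.18) in transgenic hearts, and the difference between its adult and newborn transgenic effects had adjusted p = 0.0958. That test passed with the 18S factor (adjusted p = 0.0471) and with array weights (0.0247). It did not pass with a replicate block within each age (0.142) or without the high-18S adult arrays (0.0525), and ranged from 0.0579 to 0.383 without single arrays.

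Some other loop genes followed the balance, and others did so weakly or not at all. Nfil3, whose product binds the same D-boxes as DBP and represses them, read 6.20, 6.63 and 7.63 in control adults and 6.38, 6.85 and 6.81 in transgenic adults, and correlated with the balance at r = -0.878. Ciart, a repressor of the activator pair, read 7.68, 6.92 and 5.79 and 7.79, 7.00 and 7.20, at r = 0.819. In transgenic adults replicate 3 lay between replicates 1 and 2 for both genes. A cryptochrome gene also differed between the replicate 3 arrays. Cry2, chosen after its values were seen, read 8.01 in transgenic and 6.57 in control replicate 3. The other adult arrays read 6.85 to 7.18. With the balance r was -0.00481 for Cry2, -0.378 for Rora and -0.587 for Cry1, but -0.847 for Gsk3b. Malat1, which is not a listed clock gene, had r = -0.856. All these r values include adult replicate 3, and their dependence on it was not tested. In newborns 0 of the 24 passed, and between ages 4 rose and 3 fell in control and 7 rose and 4 fell in transgenic hearts, near the 33% and 39.4% of all genes called. Nfil3 was lower in adult controls by 1.26 (SE 0.32, adjusted p = 0.0135), a call lost without control newborn replicate 1 or 2 (adjusted p = 0.107 and 0.0534). The casein kinase gene Csnk1e, whose product marks PER proteins, was lower by 1.21 (SE 0.22, adjusted p = 0.00211), and kept its call without any single array.

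Of the 14 glucocorticoid-responsive genes 3 rose in transgenic adults, 0 fell and 11 did not pass, with a median of 0.29 against 0.00 for all genes, of which 4.16% were called higher and 2.93% lower. Of the 14, 9 had a change above 0. Klf15 (-0.76), Klf9 (-0.43) and Dusp1 (-0.35) were among those below 0, and none of these passed. Fkbp5 read 9.72, 9.84 and 10.30 in transgenic and 8.54, 8.30 and 8.17 in control adults, a rise of 1.62 (SE 0.39, adjusted p = 0.0302), and the groups did not overlap. The call was lost without replicate 3 of both groups (adjusted p = 0.0919) and when any 1 of 4 adult arrays was left out (adjusted p up to 0.0953). The metallothionein gene Mt2 rose by 1.99 (SE 0.34, adjusted p = 0.00551) and kept its call without any single array, but not with the adult arrays fitted alone (adjusted p = 0.0609). Lcn2, which encodes a secreted carrier of iron-binding siderophores, rose by 2.29 (SE 0.62, adjusted p = 0.0488), lost when any 1 of 8 of the 11 arrays was left out (adjusted p up to 0.130). Per1, the member that shares this input, differed by 0.32 (SE 0.25, adjusted p = 0.563) in the same hearts.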

How the data were processed

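RNA of 11 left ventricles was labelled as biotinylated cRNA and read on Affymetrix arrays, per the labels' protocols. The authors deposited log2 values for 45101 probe sets. The submitters' processing notes list RMA, affy and limma, without saying what each did or in which version. Array medians lay between 5.12 and 5.18, which hides any shift shared by most transcripts. Of the probe sets, 34958 had 1 gene symbol, 932 several and 9211 none listed. The brightest one by mean over all arrays stood for each of 18194 genes; 9012 genes had more than 1.

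One mean per group was fitted to all 11 arrays in limma 3.58.1 (R 4.3.3; lmFit, eBayes; 7 residual and 3.85 prior degrees of freedom), with 2-sided tests, Benjamini-Hochberg adjustment over all genes and calls under 0.05. It was tested on simulated data with independent normal noise and the same spread in all groups. That setting lacks the shift that adult replicate 3 shows here. Arrays hold no read depth, so their number limits the precision. Adult arrays spread more than newborn arrays, and the shared estimate averages both.

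The members and lists were chosen with earlier results of these data known. Named were all members, up to 4 genes per list and contrast with the smallest p, Hmgn5, and the 8 genes at each end of likeness to the clock balance. Some listed genes were not measured here. Deviations from group means of same-numbered adult arrays correlated at 0.310, -0.0556 and 0.445 for replicates 1, 2 and 3. Those of differently numbered adult arrays correlated at -0.417 to 0.307. Replicate 3 thus gave the highest value, replicate 1 lay just above that range and replicate 2 lay inside it. The labels do not say whether same-numbered arrays were processed together.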

Additional observations from a re-analysis of the deposited data

How the results depend on the processing

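In the comparisons of transgenic with control hearts, and in the difference between ages, 0 members passed under every alternative run. These were the replicate block, averaging the probe sets of a gene, all probe sets, the filter on low values, robust variance with an intensity trend, array weights, the compared groups alone (not run for the difference between ages), cyclic loess, a common array median, the 18S factor, both high-18S arrays left out, and each array left out. The count of members called between ages moved by more than 1.5 times as follows. In control hearts, 4 in the full fit, it was 2 with the compared groups alone and 7 without the high-18S arrays, and 1 to 5 without single arrays, the lowest without control newborn replicate 1. In transgenic hearts, 3 in the full fit, it was 5 with array weights, 7 with the 18S factor, 6 without the high-18S arrays, and 2 to 4 without single arrays. Per3 in controls, by its brightest probe set, reversed to 0.38 without the high-18S arrays, and the cause was not tested. With the replicate block the counts were 0, 0, 0, 4 and 3, and a block within each age, added after the data were seen, gave 0 for the transgenic comparisons; neither changed a member's call, but the block within age took the calls of Fkbp5 (adjusted p = 0.0635) and Lcn2 (0.0699). The count of all genes called in adults ranged from 373 with the compared groups alone to 2625 with the 18S factor, against 1290. Signals near or below the array medians, such as Npas2 in adults and Fbxl21, limit what folds can show.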
